A study of Mus musculus with 15 samples.

Results

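Molecular chaperones bind unfolded or partly folded proteins and help them reach or keep their native shape. HSP70 proteins bind short hydrophobic stretches in a cycle driven by ATP, J-domain (DnaJ) proteins bring them their substrates and stimulate the ATPase, HSP110 proteins exchange the nucleotide, and HSP90 acts late on kinases, receptors and other client proteins. The CCT (TRiC) ring folds actin and tubulin in the cytosol, and Hspd1 (HSP60) and Hspe1 (HSP10) form the chaperonin of mitochondria. Heat shock factor Hsf1 induces a subset of these genes within minutes of heat or other protein-damaging stress, and the unfolded protein response induces those of the endoplasmic reticulum. T cells that are activated through their antigen receptor grow and make protein at a high rate.

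The genes described here were chosen by symbol, as the HSP families (Hspa, Hspb, Hspd, Hspe, Hsph and Hsp90), the DnaJ genes of classes A, B and C and the CCT subunits with their close relatives. They came to 79 genes of 18194 with 1 symbol on the arrays of the CD4+ T cells, measured by 198 of 45101 probe sets. On the smaller thymocyte arrays they came to 68 genes of 12394, measured by 144 of 22690 probe sets, of which 20 read 0 on all 3 arrays. The 11 genes without a thymocyte probe set were Cct8l1, Dnajb14, Dnajc6, Dnajc16, Dnajc22, Dnajc25, Hspa12a, Hspa13, Hspb6, Hspb9 and Hspbap1. Hsp90ab1 and the probe sets that the annotation gives to Dnajc19 and another gene were not analysed here. No member was removed for a low value.

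All mice were on the 129/SJ background, and wild type (WT) animals were littermates of the mutants. The mutants were homozygous germline knockouts (KO) of N-ras or of H-ras, which encode small GTPases that relay receptor signals. Untreated thymocytes were measured on 1 array for WT and 1 for either mutant, with no replicate and hence no test. The labels give all donors an age of 6 to 20 weeks. Splenic CD4+ T cells, from WT or N-ras KO animals, were sorted and kept overnight in T-cell growth media, either untreated or with 1 μg/ml anti-CD3 and anti-CD28 antibodies, a low-level stimulus of the T-cell receptor (TCR), with 3 arrays in each of the 4 groups. Unstimulated and stimulated arrays of a genotype with the same number are called a pair here. Values were log2 expression relative to a baseline, the median of the 3 thymocyte arrays or of the 3 unstimulated arrays of the same genotype, so that they held differences and no level. For that reason the tissue labels could not be checked against marker levels, levels could not be compared between genes, and WT could not be compared with N-ras KO in CD4+ T cells except through their responses to stimulation. In bulk RNA, fewer cells of a type and less RNA per cell cannot be told apart.

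Nras itself served as the check of the labels. In thymocytes WT exceeded N-ras KO on its 3 probe sets by 1.81, 2.46 and 2.38 on the log2 scale, and H-ras KO lay within 0.28 of WT. In CD4+ T cells the library pair labelled N-ras KO 3 had Nras above the other N-ras KO arrays on all 3 probe sets, with values of 1.70, 1.21 and 2.04 unstimulated and 1.21, 0.80 and 2.09 stimulated. The library pair labelled WT 1 had Nras below the other WT arrays when unstimulated, at -1.61, -1.23 and -2.68, and on 2 of 3 probe sets when stimulated, at -1.23 and -3.04. These labels go against the gene they name, so counts over the CD4+ T cells and the differences between genotypes that the text turns on are also given without both pairs. The third pair of each genotype also stood apart in spread: 22.2% of the chaperone probe sets of unstimulated N-ras KO 3 and 17.2% of those of unstimulated WT 3 lay at least 2-fold from the genotype's median, against 3.5% to 6.6% on the other 4 unstimulated arrays.

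Promoter sequences are shown for the genes that differed most between thymocytes, for the chaperonin pair and for the main chaperone of the endoplasmic reticulum. A RefSeq table of GRCm38.p6 held windows from 250 bases before to 50 after the start for 66 of the 79 genes. Hsf1 binds repeats of the unit GAA in alternating orientation. The strict element GAANNTTCNNGAA, searched on both strands, was found in windows of 4 of these genes (6.1%), namely Hsph1, Hspd1, Hspe1 and Dnajb6, against 0.66% of all 27025 genes in the table. The shorter form GAANNTTC, which the strict element contains and which was added after the strict search, was found in 15 of the 66 (22.7%), Hspa1a and Hspa1b among them, against 9.04% of all genes. The endoplasmic reticulum stress element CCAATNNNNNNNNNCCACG was found in Hspa5, Hsp90b1 and Dnajc3, 3 of 66 genes (4.5%) against 0.14% of all. A match is a description of letters and not evidence of binding. In the sequences below, written 5′ to 3′ on the gene's strand, capitals mark these elements. Hspa1a (chr17:34972157-34972406, minus strand) and Hspa1b (chr17:34959239-34959488, minus strand) lie in the same region of chromosome 17, and their 250 bases before the start differed at 3 positions. In Hsph1 (chr5:149636288-149636465, minus strand), whose sequence is shown from -150, the element begins at 16 after an annotated start. That start lies inside the gene's outermost one and was chosen by the place of the element. Hspe1 (chr1:55087898-55088147, plus strand) is shown for Hspd1 too, since the genes are divergent, their windows overlap and both hold the same overlapping elements. The bases shown lie inside the annotated span of Hspd1. For Hspd1 the elements are therefore in the window of a start inside the gene's outermost one. The last sequence is that of Hspa5 (chr2:34771840-34772089, plus strand), with its element beginning at -65.
Hspa1a: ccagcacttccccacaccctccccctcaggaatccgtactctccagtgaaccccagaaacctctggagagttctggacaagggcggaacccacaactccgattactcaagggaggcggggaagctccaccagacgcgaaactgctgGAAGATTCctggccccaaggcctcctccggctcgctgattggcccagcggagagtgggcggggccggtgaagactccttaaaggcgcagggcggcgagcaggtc
Hspa1b: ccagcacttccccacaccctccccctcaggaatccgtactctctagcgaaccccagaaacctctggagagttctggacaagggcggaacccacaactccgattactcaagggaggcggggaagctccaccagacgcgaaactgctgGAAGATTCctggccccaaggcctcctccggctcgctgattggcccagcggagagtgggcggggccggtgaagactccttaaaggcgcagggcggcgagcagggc
Hsph1: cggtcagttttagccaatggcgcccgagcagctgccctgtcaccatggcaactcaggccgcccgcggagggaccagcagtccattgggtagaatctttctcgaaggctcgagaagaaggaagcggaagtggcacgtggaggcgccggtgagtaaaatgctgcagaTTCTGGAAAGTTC
Hspe1 and Hspd1: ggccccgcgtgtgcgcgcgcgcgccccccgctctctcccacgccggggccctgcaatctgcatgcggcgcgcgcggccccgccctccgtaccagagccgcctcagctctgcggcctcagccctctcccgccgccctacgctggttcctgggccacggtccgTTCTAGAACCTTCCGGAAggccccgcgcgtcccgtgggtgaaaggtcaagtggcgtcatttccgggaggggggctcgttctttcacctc
Hspa5: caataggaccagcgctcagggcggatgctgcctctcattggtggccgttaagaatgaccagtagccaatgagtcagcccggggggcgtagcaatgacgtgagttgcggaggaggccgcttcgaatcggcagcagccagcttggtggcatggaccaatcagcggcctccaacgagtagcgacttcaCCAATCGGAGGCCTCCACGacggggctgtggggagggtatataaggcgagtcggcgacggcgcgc

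In thymocytes the inducible HSP70 genes were far higher in WT than in either mutant. Hspa1a and Hspa1b encode near-identical cytosolic HSP70 proteins that are scarce in unstressed cells and strongly induced by heat, and probe sets cannot be taken to separate them. The Hspa1a probe set read 3.52 in WT, 0 in H-ras KO and -0.52 in N-ras KO. The 3 Hspa1b probe sets read 3.20 to 3.33 in WT, 0 in H-ras KO and -2.01 to -1.36 in N-ras KO. WT was therefore 16.4-fold above N-ras KO for Hspa1a and 23.6-, 40.2- and 25.6-fold for Hspa1b. Against H-ras KO the folds were 11.5 for Hspa1a and 9.19 to 10.0 for Hspa1b. H-ras KO itself was above N-ras KO by 1.36 to 2.01 (log2) for Hspa1b and by 0.52 for Hspa1a.

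The nucleotide exchange factor Hsph1 (HSP110), which works with HSP70 and was the other gene with a large difference, followed the same order. Its probe sets read 1.47 and 1.37 in WT, 0 in H-ras KO, and -1.20 and -1.09 in N-ras KO. These are 6.38- and 5.48-fold between WT and N-ras KO, and 2.78- and 2.58-fold between WT and H-ras KO. The related Hspa4 differed by 1.02 between WT and N-ras KO on 1 probe set and by 0.17 and 0.25 on the others, so its probe sets did not give 1 size. Hspa4l was higher in WT by 0.58 and 0.27, the former just under the 1.5-fold line.

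The DnaJ partners of cytosolic HSP70 came next. Dnaja1 was higher in WT thymocytes, against N-ras KO by 0.87 and 0.93 and against H-ras KO by 0.47 and 0.60. Dnajb1, the main heat-inducible J-domain protein, was higher by 0.72 and 0.85 against N-ras KO and by 0.52 and 0.51 against H-ras KO. Both had the order WT, H-ras KO, N-ras KO. Dnajb4, a relative of Dnajb1, was higher in WT by 0.63 and 0.46 against N-ras KO and by 0.60 and 0.38 against H-ras KO. Dnajb9, a co-chaperone of Hspa5 in the endoplasmic reticulum, had another pattern, since it read 1.14 in WT, 0 in H-ras KO and -0.01 in N-ras KO. Its 2.2-fold difference was thus the same against both mutants, which lay within 0.01 of each other.

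Other chaperones of the cytosol and those of mitochondria differed in the same direction. Hspa8 (HSC70), which serves clathrin uncoating and much of de novo folding, was higher in WT by 0.43 to 0.72 over 4 probe sets against N-ras KO and by 0.25 to 0.28 against H-ras KO. Hsp90aa1, the inducible cytosolic HSP90, was higher by 0.44 to 0.81 over 3 probe sets against N-ras KO and by 0.20 to 0.50 against H-ras KO. In mitochondria, Hspd1 was higher in WT by 0.59 against N-ras KO and by 0.36 against H-ras KO, and Hspe1 by 0.49 and 0.53 and by 0.35 and 0.34. Hspa9, the HSP70 of mitochondria, differed by 0 to 0.27. Among chaperones of the endoplasmic reticulum, Hspa5 (BiP) was higher in WT by 0.43 and 0.58 against N-ras KO and by 0.37 and 0.53 against H-ras KO, while Hsp90b1 (GRP94) was higher by 0.21 and 0.49 and by 0 and 0.21.

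**Figure D1:**
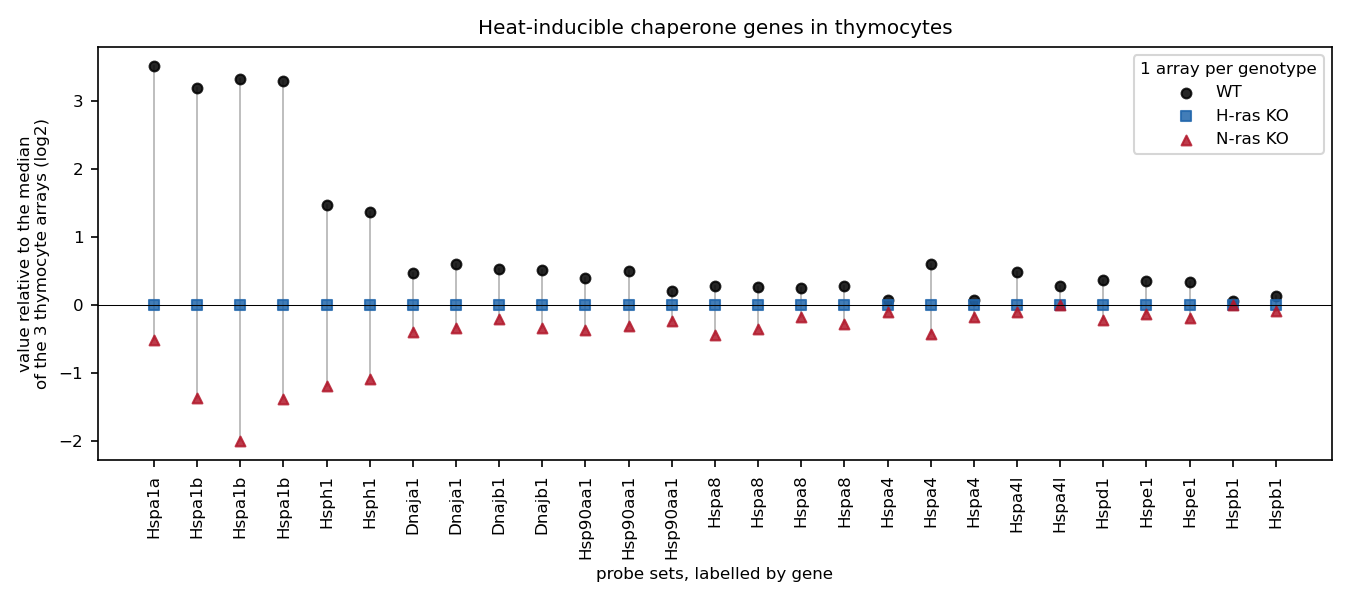
Values of the 12 heat-inducible genes in thymocytes, on the log2 scale relative to the median of the 3 arrays, with 1 column per probe set (27 in all) and 1 symbol per genotype (1 array each). The genes were listed as the members best known as targets of Hsf1, with earlier results of these data known. WT lies highest on all 27, and H-ras KO lies above N-ras KO on 25. Of the 17311 probe sets of any kind not at 0 on all arrays, 27.9% have WT above both mutants. Over all 22690, which include those at 0 on all arrays, H-ras KO lies above N-ras KO on 7936 and below it on 7183. The gap is largest for Hspa1a, Hspa1b and Hsph1.

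The CCT ring moved little. None of its 23 thymocyte probe sets reached 1.5-fold in any comparison. Yet 21 of them lay above 0 and none below in WT minus N-ras KO, with a median of 0.165 and a highest value of 0.47 for Cct3. In WT minus H-ras KO 19 lay above 0 and none below, with a median of 0.088. Of all 22690 probe sets, 8091 lay above and 7334 below 0 in WT minus N-ras KO. In WT minus H-ras KO, 7242 lay above and 7474 below. The CCT probe sets are of 8 genes, those of 1 gene share its RNA, and each genotype had 1 array. Cct6a and Cct7 differed from N-ras KO by 0.21 to 0.28 and from H-ras KO by 0.01 to 0.07. Cct2 and Cct4 were within 0.26 of both mutants, Cct5 differed by 0.12 and 0.04, and Cct8 by 0.23 and 0.09 on the probe set that varied.

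Small HSPs and most DnaJ genes of class C did not share the pattern. The 12 probe sets of small HSPs lay between -0.20 and 0.22 in WT minus N-ras KO, with a median of 0. Hspb1, the heat-inducible member of that family, differed by 0.06 and 0.22. Of 44 class C probe sets, 19 lay above and 18 below 0 in the same comparison. Class C members carry a J domain within otherwise unrelated proteins, and 2 of them gave the only values that were at least 1.5-fold lower in WT. Dnajc1, a J-domain protein of the endoplasmic reticulum membrane, was lower by 1.02 against N-ras KO and by 0.64 against H-ras KO on 1 probe set, and within 0.13 on the other 2. Dnajc15, a J-domain protein of the inner membrane of mitochondria, read -0.01 in WT, 0 in N-ras KO and 0.74 in H-ras KO, so that it was 1.69-fold lower in WT than in H-ras KO.

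**Figure D2:**
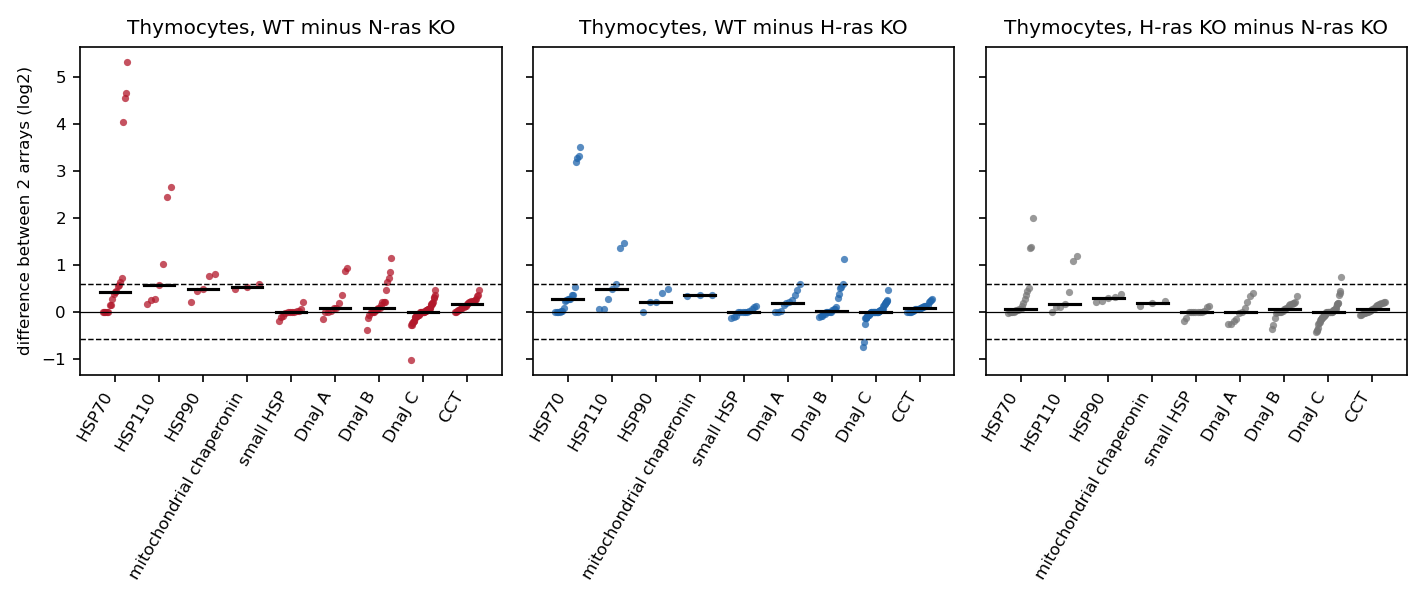
Differences between thymocyte arrays (log2) for each chaperone probe set, by family, with 1 panel per comparison. Points are probe sets, bars are family medians, and broken lines mark 1.5-fold. The HSP70 and HSP110 panels hold the largest differences, class C and small HSPs centre on 0, and CCT lies slightly above it. The single probe set of the binding proteins, at 0, is not drawn.

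Counted over the members, 18 of 144 probe sets from 11 genes exceeded N-ras KO by 1.5-fold or more in WT thymocytes (12.5%), where the background over all 22690 probe sets was 1.09%. Only Dnajc1 was lower (1 probe set, with a background of 1.55%). Against H-ras KO, 10 probe sets from 7 genes were higher (6.94%, background 1.51%) and 2 lower (1.39%, background 1.47%). H-ras KO exceeded N-ras KO on 6 probe sets, of Hspa1b, Hsph1 and Dnajc15 (4.17%, background 1.04%), and none was lower (background 1.38%). Of the 124 chaperone probe sets not at 0 on all arrays, 57 (46.0%) had the order WT, H-ras KO, N-ras KO, against 11.8% of the 17311 such probe sets in all. The comparisons share arrays, and 1 array decides each of them. The member medians were 0.075, 0.058 and 0.029, against 0 over all probe sets. At 2-fold, the members past the line were Hspa1a, Hspa1b, Hsph1, Hspa4, Dnajb9 and Dnajc1 against N-ras KO.

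Co-chaperones and heat shock factors, a separate list of 33 genes on these arrays, held 6 genes with a WT value 1.5-fold or more above that of N-ras KO thymocytes. By probe set this was 7 of 50 (14%, background 1.09%). All 6 are partners of HSP70 or HSP90, as most of the list was chosen to be. They were Stip1, which links both chaperones (0.89), the HSP90 activators Ahsa1 (0.73) and Ahsa2 (0.63), St13, which stabilises HSP70 (0.73 and 0.70), Fkbp4 (0.69) and Chordc1 (0.65). A further Fkbp4 probe set was at -0.25. On 1 of 3 probe sets the factor Cdc37l1 was lower by 1.22 in that comparison and by 0.86 against H-ras KO, with the others at -0.34 to -0.07 in both. Against H-ras KO, no gene of the list was 1.5-fold higher in WT. The list's median was 0.027 against N-ras KO and 0 against H-ras KO.

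Other genes moved with these differences. Of 23 immediate early genes, 12 reached 1.5-fold in favour of WT against each mutant, among them Fos (3.54 against N-ras KO and 1.62 against H-ras KO) and Jun (3.39 and 1.80 on 1 probe set). All 10 neutrophil markers were higher in WT, 9 of them past 1.5-fold against N-ras KO with a list median of 1.43, and 8 against H-ras KO with a median of 1.81. The 7 T cell markers lay between -0.35 and 0.26 in these comparisons, and no probe set of theirs reached 1.5-fold. Among 22 endoplasmic reticulum stress genes only Atf4 passed that line, by 0.91 and 0.65 on 1 of 3 probe sets. Of 5 B cell marker genes, 1 probe set was lower in WT than N-ras KO and 3 were higher than H-ras KO at 1.5-fold, and red cell markers gave none. Of 11 thymocyte marker probe sets, only Rag2 passed, at -0.60 in WT minus H-ras KO. Of 13 for activated T cells, 1 was higher in WT than N-ras KO and 2 than H-ras KO. Of 9 for macrophages and dendritic cells, 1 of H2-Aa passed, at 1.31 in WT minus H-ras KO. Over all probe sets, 1.09% were higher and 1.55% lower against N-ras KO, and 1.51% and 1.47% against H-ras KO. The part of neutrophil RNA in the chaperone differences was not tested, nor was that of the immediate early genes.

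In CD4+ T cells the question was whether TCR stimulation moved the chaperones and whether N-ras changed that response. No probe set of any kind passed an adjusted p of 0.05 in limma, in the WT response (background 0%), the N-ras KO response (0%), their mean (0%) or their difference (0%). The smallest adjusted p among the chaperones was 1.00 for the WT response, 0.565 for the N-ras KO response, 0.614 for the mean and 0.961 for the difference. At an unadjusted p of 0.05 alone, 13, 17, 14 and 8 of the 198 chaperone probe sets passed (6.57%, 8.59%, 7.07% and 4.04%), where 4.3%, 7.1%, 6.59% and 4.58% of all probe sets did. The members below are therefore described at the study's own thresholds, an unadjusted p of 0.05 and 1.5-fold, and none of them is shown to have changed. Markers of T cell activation gave a scale for the stimulus: over 16 probe sets of 8 genes the median response was 1.32 in WT and 0.99 in N-ras KO. The 10 neutrophil markers had medians of -0.04, 0.06 and -0.84 in the WT pairs and 1.61, 0.62 and -0.19 in the N-ras KO pairs, and the 11 probe sets of macrophage and dendritic cell markers had a median response of 0.44 in WT (10 above 0) and -0.09 in N-ras KO (4 above 0). The part of either cell type in the differences between genotypes was not tested.

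At those thresholds 4 chaperone probe sets were higher after stimulation in WT (2.02%, background 1.43%) and 1 was lower (0.505%, background 1.37%). In N-ras KO 3 were higher (1.52%, background 2.25%) and 8 lower (4.04%, background 2.65%). For the mean of both genotypes 1 was higher (0.505%, background 1.25%) and 4 lower (2.02%, background 1.48%). The WT response exceeded the N-ras KO response on 7 (3.54%, background 2.28%) and was below it on none (background 1.84%). Without the pairs WT 1 and N-ras KO 3, the counts were 2 and 0 in WT, 4 and 7 in N-ras KO, 0 and 3 for the mean, and 7 and 5 for the difference. Over all probe sets, 3.94%, 5.96%, 3.32% and 5.64% then passed, and for the difference 2.73% were higher and 2.91% lower. The absence of lower values in the difference depended on those pairs.

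All 3 probe sets of the mitochondrial chaperonin, from 2 genes, had every WT pair above every N-ras KO pair (background 5.41%). Hspd1 was higher after stimulation by 0.53, 0.61 and 0.84 (log2) in the WT pairs, and its N-ras KO pairs gave -0.30, 0.17 and 0.16. The WT and N-ras KO pairs did not overlap. The mean was 0.66 ± 0.16 (SD, n = 3) in WT and 0.01 ± 0.27 (SD, n = 3) in N-ras KO, a difference of 0.65 with SE 0.22 and a limma adjusted p of 0.961. Without the pairs WT 1 and N-ras KO 3 that difference was 0.79 and no longer past the unadjusted threshold. Hspe1, its partner, whose promoter is shown above, gave 0.32, 0.36 and 0.71 in WT and -0.08, 0.13 and -0.18 in N-ras KO on 1 probe set. Its other probe set gave 0.37, 0.34 and 0.38 in WT and -0.07, -0.08 and 0.25 in N-ras KO. On both, the lowest WT pair was above the highest N-ras KO pair, while the mean WT responses, 0.47 and 0.36, were under 1.5-fold. The differences between genotypes were 0.51 and 0.43 without the pairs WT 1 and N-ras KO 3. Leaving out pairs cannot make groups overlap that did not, so the order of the 3 chaperonin probe sets was bound to stay. Of all probe sets, 19.1% then had every WT pair above every N-ras KO pair.

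Hspa9, which imports and folds proteins in mitochondria, gave 0.26, 0.26 and 0.53 in WT and -0.02, 0.19 and -0.02 in N-ras KO on 1 of 5 probe sets. The genotypes overlapped on 3 of them, for example at 0.30, -0.03 and 0.71 in WT and 0.20, 0.43 and -0.56 in N-ras KO. Over the 7 mitochondrial members with their 17 probe sets, the median within a pair was 0.30, 0.26 and 0.38 in WT and -0.03, 0.02 and -0.02 in N-ras KO. All 3 WT pairs were above 0 on 9 of these 17 probe sets (52.9%, background 14.5%), and all 3 N-ras KO pairs on 2 (11.8%, background 13.8%). The 3 WT pairs were above all 3 N-ras KO pairs on 5 of them (29.4%, background 5.41%), from Hspd1, Hspe1 and Hspa9. With the pairs WT 1 and N-ras KO 3 left out, when fewer pairs have to concur, the last count was 9 (52.9%, with 19.1% of all probe sets), and the median response was 0.30 in WT and -0.06 in N-ras KO.

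**Figure D3:**
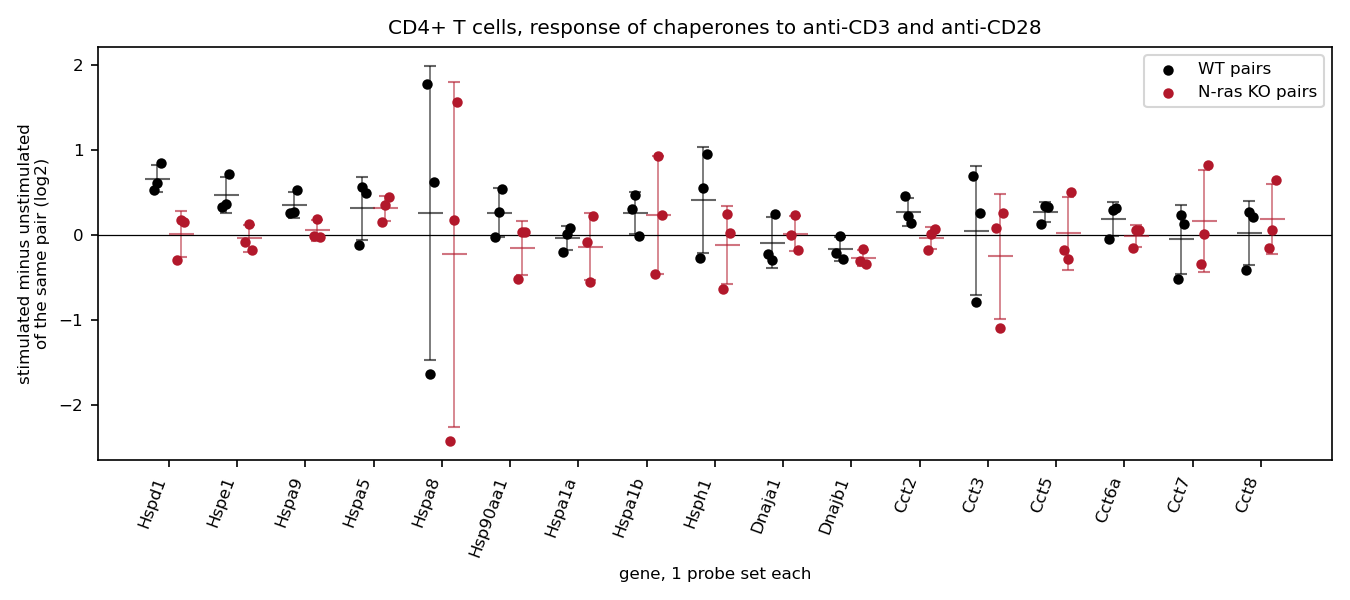
Stimulated minus unstimulated values (log2) of 17 chaperone genes in CD4+ T cells, 1 probe set each by a rule on probe set type and ID. Points are the 3 WT and 3 N-ras KO pairs, with mean and SD. Hspd1, Hspe1 and Hspa9 have WT pairs above all N-ras KO pairs, Hspa1a has pairs on both sides of 0, and the Hspa8 probe set drawn here spreads from -2.43 to 1.77.

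Cytosolic HSP70 and HSP90 genes gave smaller responses. Hspa8 responded by 0.19, 0.12 and 0.20 in WT and by -0.22, -0.10 and 0.07 in N-ras KO on 1 probe set, without overlap, and 2 more probe sets, of the type that can match several transcripts, did not overlap either. A further Hspa8 probe set spread from -1.63 to 1.77 in WT. Hsp90aa1 did not overlap on 2 of 5 probe sets, with 0.40, 0.31 and 0.43 in WT and 0.00, -0.25 and 0.27 in N-ras KO on 1 of them. On the other, the lowest WT pair was only just above the highest N-ras KO pair. Every WT pair exceeded every N-ras KO pair on 5.41% of all probe sets. The heat-inducible genes that differed most between thymocytes had responses of both signs. Hspa1a gave -0.20, 0.00 and 0.07 in WT and -0.08, -0.56 and 0.22 in N-ras KO. Hspa1b gave 0.30, 0.47 and -0.01 in WT and -0.47, 0.92 and 0.24 in N-ras KO on its first probe set. Hsph1 gave 0.23, -0.10 and 0.51 in WT and -0.12, 0.26 and 0.15 in N-ras KO on its less variable probe set. The remaining probe sets of Hspa1b and Hsph1 also had pairs of both signs, some with larger responses. Dnajb1 was lower in all 6 pairs on 1 probe set, by 0.22, 0.01 and 0.29 in WT and by 0.31, 0.17 and 0.35 in N-ras KO, while its other probe set gave 0.16, 0.23 and -0.32 in WT and 0.30, 0.69 and 0.45 in N-ras KO. No probe set of Dnaja1 or Hspa4 passed the study's thresholds. The groups overlapped for Hspa1a, for Hsph1 and for the first probe set of Hspa1b. On another Hspa1b probe set, the lowest WT pair was only just above the highest N-ras KO pair.

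Over all members, the 3 WT pairs lay above 0 on 45 of 198 probe sets (22.7%, background 14.5%) and below 0 on 24 (12.1%, background 13.5%). The 3 N-ras KO pairs lay above 0 on 19 (9.6%, background 13.8%) and below 0 on 31 (15.7%, background 12.9%). Every WT pair exceeded every N-ras KO pair on 24 probe sets from 15 genes (12.1%, background 5.41%), and the reverse held on 4 (2.0%, background 4.98%). These last counts were, without the pairs WT 1 and N-ras KO 3, 69 (34.8%, with 19.1% of all probe sets) and 20 (10.1%, with 17% of all), and the median difference was 0.153 against 0.014. The 24 with all pairs include Hspd1, Hspe1, Hspa9, Hspa8, Hsp90aa1, Cct2 and Cct4, and the 4 are of Dnajb1, Dnajc8, Hspa4 and Hspb8. Most of these differences were under 1.5-fold, and probe sets of 1 gene share its RNA. The median response of the members was 0.040 in WT and -0.015 in N-ras KO, with a median difference of 0.063, against 0.003, 0.011 and -0.008 over all probe sets.

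Among chaperones of the endoplasmic reticulum, 1 probe set each of Hspa5 and Dnajc3 was higher in all 6 pairs. Hspa5, shown above with its stress element, gave 0.36, 0.32 and 0.69 in WT and 0.25, 0.25 and 0.74 in N-ras KO. The mean over both genotypes was 0.44 ± 0.22 (SD, n = 6), under 1.5-fold, with a limma adjusted p of 0.720. A second probe set was higher in 5 of 6 pairs, and the third stayed within 0.29 of 0. Dnajc3, a co-chaperone of Hspa5, gave 0.07, 0.10 and 0.02 in WT and 0.34, 1.04 and 0.09 in N-ras KO on that probe set, and values of both signs on its other 4. Hsp90b1 gave -0.37, 0.19 and 0.07 in WT and 0.02, -0.24 and -0.07 in N-ras KO on 1 probe set, and 0.52, 0.04 and 0.08 against -0.29, 0.25 and -0.14 on the other, with overlap on both. Dnajb9, which was higher in WT thymocytes, lay between -0.16 and 0.05 in all 6 pairs. Hspa13, an HSP70 relative of microsomes, was past the unadjusted thresholds in WT on 1 of 4 probe sets, with 1.20, 0.32 and 0.28.

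All 3 WT pairs were above 0 on 12 of the 26 CCT probe sets (46.2%, background 14.5%), and all 3 N-ras KO pairs on none (background 13.8%). Every WT pair exceeded every N-ras KO pair on 5 (19.2%, background 5.41%), and without the pairs WT 1 and N-ras KO 3 on 17 (65.4%, with 19.1% of all probe sets). Cct2 gave 0.45, 0.22 and 0.14 in WT and -0.18, 0.00 and 0.06 in N-ras KO, and its 3 probe sets did not overlap between genotypes. Cct5 gave 0.13, 0.33 and 0.33 in WT and -0.18, -0.28 and 0.51 in N-ras KO, with overlap. The family median was 0.202 in WT and -0.005 in N-ras KO, and 0.183 and -0.108 without those pairs. Cct4 was past the unadjusted thresholds on 2 of 7 probe sets: 1 gave 1.08, 1.04 and -0.04 in WT and -1.43, -1.17 and -0.11 in N-ras KO, a difference of 1.60 with SE 0.47, and the other gave -0.75, 0.47 and -0.31 against -1.87, -1.13 and -1.34. The limma adjusted p of the difference was 0.961 for both. Leaving out the pairs WT 1 and N-ras KO 3 gave differences of 1.80 and 1.58, still past the unadjusted thresholds. The 5 remaining Cct4 probe sets had mean responses between -0.26 and 0.22 in both genotypes, so the gene's probe sets disagreed in size. No probe set of Cct3, Cct6a, Cct7 or Cct8 passed those thresholds.

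Among DnaJ genes, Dnajc6 (auxilin), which recruits Hspa8 to clathrin coats, was lower after stimulation in every N-ras KO pair on 2 of 4 probe sets, by 1.24, 0.92 and 0.59 and by 0.33, 1.38 and 0.56. Its WT pairs gave -0.34, 0.23 and 0.46 and 0.31, 0.19 and -0.25. Dnajc2, a ribosome-bound partner of HSP70, had probe sets of opposite sign: 1 gave -1.77, -0.19 and -0.18 in WT and -1.27, -2.46 and -2.09 in N-ras KO, while another was higher in all 6 pairs, by 0.35 to 0.76. The latter had the smallest adjusted p among the chaperones for the mean response (0.614), with a mean of 0.53 ± 0.15 (SD, n = 6), under 1.5-fold. Dnajc24, which serves diphthamide synthesis, gave 1.69, 0.48 and 0.45 in WT and -1.04, -0.28 and 0.22 in N-ras KO on 1 of 2 probe sets. The other gave 1.26, 0.72 and 0.29 in WT and -1.26, -0.25 and 1.18 in N-ras KO, with overlap. Dnaja3, a J-domain protein of mitochondria, gave 1.97, 0.12 and 1.47 in WT on 1 of 3 probe sets and -0.13, 1.57 and -0.16 in N-ras KO. On Dnajb6, 1 of 4 probe sets gave 1.09, 0.62 and -0.17 in WT and -0.80, -0.33 and -0.49 in N-ras KO. Without the pairs WT 1 and N-ras KO 3, the difference between genotypes stayed past the unadjusted thresholds for the first Dnajc6 probe set (1.43) and the first of Dnajc24 (1.13), and not for the second of Dnajc6 (0.83) or for Dnajb6 (0.79).

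Some members passed those thresholds in the response of 1 genotype and not in the difference between genotypes. In N-ras KO, Hspa4l of the HSP110 family was higher by 2.02, 0.61 and 1.58 and by 1.31, 0.06 and 1.87 on 2 of 5 probe sets. Another Hspa4l probe set was lower in every N-ras KO pair, so the gene's probe sets disagree in sign. Dnajc28 was higher in N-ras KO by 1.59, 0.05 and 0.56 on 1 of 2. Dnajc1 was lower in N-ras KO by 1.09, 0.23 and 4.12 on 1 of 6 probe sets, which disagree in sign, Dnajc15 by 0.57, 0.23 and 1.34, and Hspbap1, which binds the small HSP Hspb1, by 0.70, 0.44 and 0.70 on 1 of 4. In WT, Hspb6, a small HSP, was lower by 1.72, 0.50 and 0.50. For the mean of both genotypes, Cct4 (-0.82), Dnajc2 (-1.33), Dnajb14 (-0.59) and Hspb6 (-0.61) were lower and Hspa4l (0.76) was higher on 1 probe set each, with all 6 pairs one way for Dnajc2 alone. Without the pairs WT 1 and N-ras KO 3, the WT responses of Dnaja3, Dnajc24, Hspa13 and Hspb6 no longer passed, at 0.80, 0.47, 0.30 and -0.50. Nor did the N-ras KO responses of Dnajc1 (-0.66), Dnajc15 (-0.40), Hspbap1 (-0.57), Dnajc28 (0.82), the lesser Hspa4l probe set (0.69) and the second Dnajc6 probe set (-0.86). The N-ras KO responses of both Cct4 probe sets (-1.30 and -1.50), Dnajc2 (-1.86), the first Dnajc6 probe set (-1.08) and the larger Hspa4l one (1.31) still passed.

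**Figure D4:**
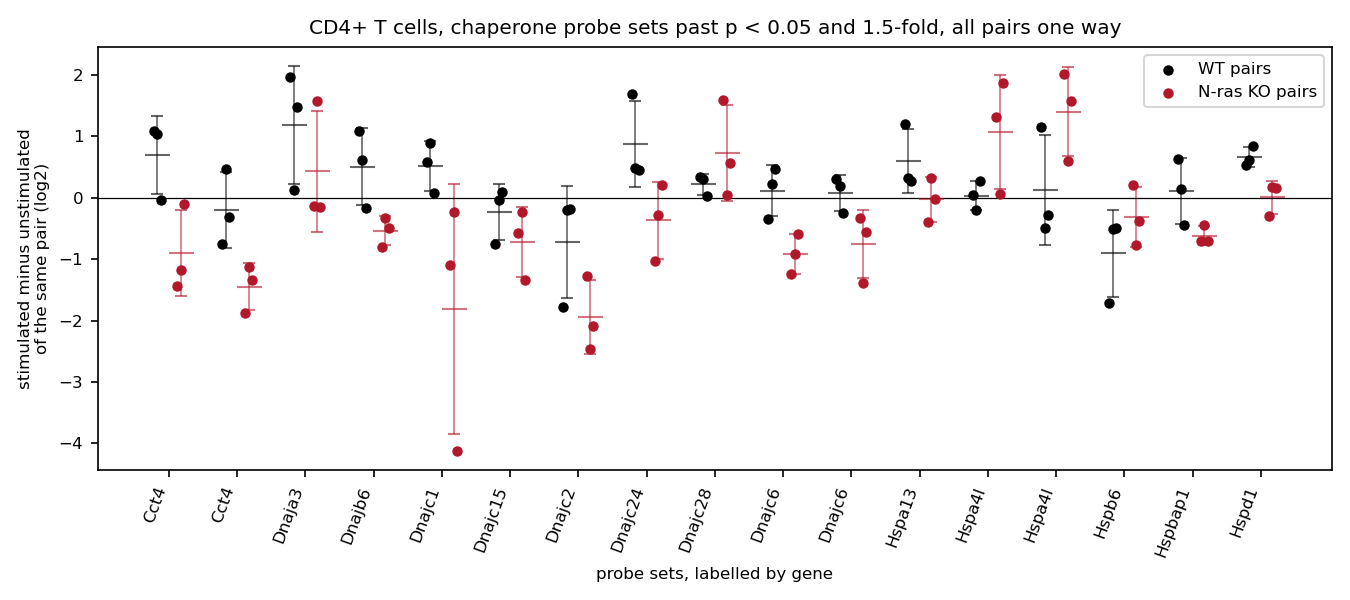
Stimulated minus unstimulated values (log2) of the 17 chaperone probe sets past an unadjusted p of 0.05 and 1.5-fold in any comparison and with all pairs in that direction. Points are the 3 WT and 3 N-ras KO pairs, bars mean and SD. The 3 WT pairs of Hspd1 lie between 0.53 and 0.84, while the N-ras KO pairs of Dnajc1 lie between -4.12 and -0.23.

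Several chaperones differed more between pairs than between the arrays of a pair. The most variable Hspa1b probe set read -5.19 unstimulated and -4.16 stimulated in N-ras KO 3, and between -0.62 and 0.31 in the other N-ras KO arrays. Its other 2 probe sets read -1.09 to 0.08 on the same 2 arrays. Hsph1 read -2.16 and -1.21 in WT 3 on 1 probe set, and 1.00 and 1.03 in N-ras KO 3. Hspe1 went the other way on 1 of 2 probe sets, at 1.22 and 1.59 in WT 3 and -1.21 and -0.96 in N-ras KO 3. Cct4 read 1.11 and 1.05 against -1.35 and -1.35 on 1 of 7. Hsp90aa1 had no single direction, since 1 probe set read 0.64 and 1.18 in WT 3 and -0.99 and -0.96 in N-ras KO 3, and another -0.58 and -0.14 against 0.96 and 1.23. On these probe sets the unstimulated and stimulated arrays of the third pairs thus had offsets of the same sign. Their source was not tested.

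**Figure D5:**
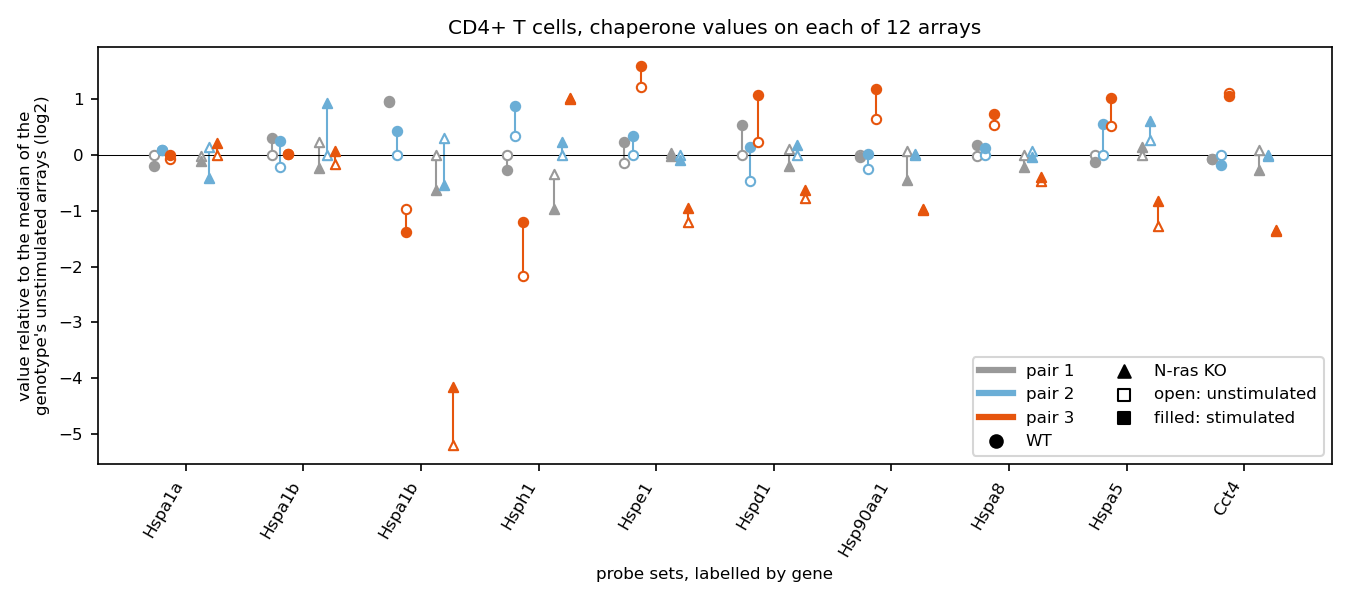
Values (log2, relative to the median of the genotype's 3 unstimulated arrays) of 10 chaperone probe sets on each of the 12 CD4+ T-cell arrays. These probe sets were chosen after their values were seen. Open symbols are unstimulated, filled ones stimulated, lines join a pair, circles are WT and triangles N-ras KO. The third pairs lie far from 0, on opposite sides in WT and N-ras KO for the probe sets of Hsph1, Hspe1, Hsp90aa1, Hspa5 and Cct4 drawn here.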

How the data were processed

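Affymetrix expression values of 12 CD4+ T-cell arrays and 3 thymocyte arrays were used. The authors deposited log2 values made with the robust multi-array average (RMA-16 in GeneSpring GX11), quantile normalization and subtraction of a baseline, the control samples' median. RMA also stands in the submitters' processing notes, without a version. In the files, the median over the 3 unstimulated arrays of each genotype was 0 on all 45101 probe sets, and that over the 3 thymocyte arrays was 0 on all 22690, with 5379 at 0 on every array. A response within a pair is not affected by this baseline. The methods name 1 array type for tables of these 2 sizes. They also state that low cRNA yields were amplified, and the arrays concerned are not given in the sources used here. Brightness above background is unknown.

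Gene names came from the platform annotation held by GEO, with 34958 and 20393 probe sets having 1 gene, 932 and 691 several and 9211 and 1606 none. No column of either table was left out. Members and gene lists were chosen with earlier results of these data known. The response of each genotype, their mean and their difference were fitted in R 4.3.3 with the moderated linear models of limma 3.58.1 (two-sided) over all 12 arrays and 45101 probe sets, with a term for each pair, and adjusted by Benjamini-Hochberg (threshold 0.05). The study's thresholds (unadjusted p of 0.05 and 1.5-fold) were applied to the same fit. Thymocytes were compared by fold only.

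Same-numbered arrays of a genotype deviated together, with correlations of their deviations from the group means of 0.458, 0.447 and 0.738 in WT and 0.361, 0.394 and 0.626 in N-ras KO. According to the methods, each sort was split between the conditions, yet each condition also had its own mouse. They give thymocyte donors a single age within the labels' range. Where pairs are not separate animals, p-values measure the spread between these arrays alone.

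Named genes were the core members (inducible and constitutive HSP70 and HSP110, HSP90, mitochondrial chaperonin, Dnaja1, Dnajb1, CCT), those at least 1.5-fold apart between thymocytes, up to 8 per direction and comparison past the study's thresholds in CD4+ T cells with all pairs one way, and the genes with the largest differences in the other lists. The fit was tested on simulated data. Alternatives were a fit with no pair term, the methods' t-test, array weights, centred differences, fewer probe sets, a 2-fold threshold and the removal of pairs.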

Additional observations from a re-analysis of the deposited data

How the results depend on the processing

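Counts of chaperone probe sets at the study's thresholds were 5 for the WT response, 11 for the N-ras KO response, 5 for their mean and 7 for their difference. Without the pair term (no replicate block) they were 0, 4, 3 and 0, so the block raised each count. The methods' t-test gave 0 in WT and 1 in N-ras KO. At 2-fold they were 1, 5 and 1 for the first 3. With 1 probe set per gene they were 3, 2, 2 and 2, with fewer probe sets counted, and the WT median moved from 0.040 to -0.004. Without the pairs WT 1 and N-ras KO 3 they were 2 in WT, 3 for the mean and 12 for the difference. Leaving out each pair in turn gave 3 (without WT 1) to 8 (without WT 3) in WT, 7 (without WT 2) to 13 in N-ras KO, 2 (without WT 1) to 6 for the mean and 6 to 12 (without N-ras KO 3) for the difference. Other settings stayed within 1.5 times. No setting gave an adjusted call. No named value changed sign, but 105 of 285 named values under an alternative lost the thresholds. Thymocyte counts of 19, 12 and 6 (WT minus N-ras KO, WT minus H-ras KO, H-ras KO minus N-ras KO) were 9 and 7 at 2-fold for the first 2 and 9, 6 and 3 with 1 probe set per gene. In both experiments the number of arrays limits precision, and thymocytes allow no estimate of error. The causes of these changes were not tested.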

Other observations

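Genes of the endoplasmic reticulum stress list that are no chaperones of the families above differed between the genotypes' responses at the unadjusted thresholds on 7 of 53 probe sets, 6 with the WT response higher (background 2.28%) and 1 with it lower (background 1.84%). Without the pairs WT 1 and N-ras KO 3, whose Nras goes against the label, 2 were higher (2.73% of all probe sets) and 0 lower (2.91% of all). Of the 7, 4 were probe sets of Xbp1, the transcription factor spliced in the unfolded protein response. Its WT pairs gave 0.20, 0.79 and 0.39 on the first of them and its N-ras KO pairs -0.51, 0.03 and -0.74. The differences over the 4 probe sets were 0.81 to 1.11 on the log2 scale, with a limma adjusted p of 0.961 for each, and 0.63 to 1.05 without those pairs, when 1 of them passed. Sil1, a nucleotide exchange factor of Hspa5, gave 0.03, 0.22 and 0.03 in WT and -0.90, -0.32 and -1.65 in N-ras KO, and its difference no longer passed without those pairs (0.74). On 1 of 2 probe sets, Edem1, which passes misfolded glycoproteins to degradation, had the lower WT response, at -0.34, -0.18 and -0.13 against 0.12, 0.49 and 0.95, and it did not pass without those pairs (-0.46). Co-chaperones and heat shock factors had 0 of 64 probe sets past these thresholds in that difference. On 1 of 3 probe sets Bag4, which binds HSP70, was lower after stimulation at the unadjusted thresholds in both genotypes, by 1.38, 0.54 and 0.52 in WT and by 0.74, 0.14 and 1.14 in N-ras KO, while its other probe sets had mean responses of 0.46 and 0.18. Its responses were -0.53 and -0.44 without those pairs and did not pass.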
